A study of Mus musculus with 2 samples.

Results

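The genes of the constitutive proteasome were compared between cultured mouse neural retinal progenitor cells (mNRPCs) and mouse retina tissue. Members were all genes whose symbol joins Psma, Psmb, Psmc or Psmd with a number, except the inducible catalytic subunits Psmb8, Psmb9 and Psmb10. This gave 36 of the 31253 genes in the table, 16 of the core particle (Psma and Psmb) and 20 of the regulatory particle (Psmc and Psmd). The mNRPC library was made from cells of C57BL/6 origin with the label 427NR-P24, read here as passage 24. The study's methods describe these cells as taken from the neural retina of adult mice. They were grown on Matrigel in a defined medium with bFGF, a growth factor, and CHIR99021, which blocks a kinase of the Wnt pathway. The other library was made from C57BL/6 retina that had not been cultured, for which the labels give no age. Each group was 1 library of total RNA, so no difference had a replicate check, no p-value was calculated, and the cell line stands for 1 culture.

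The proteasome degrades proteins that carry ubiquitin chains. Its core particle is a barrel with outer rings of alpha subunits, which gate the entrance, and inner rings of beta subunits, of which Psmb5, Psmb6 and Psmb7 encode the proteolytic ones. The regulatory particle caps the barrel. Its base holds a ring of ATPases (Psmc genes) that unfolds substrates, and its lid removes ubiquitin. Cells exposed to interferon replace the proteolytic subunits with inducible ones. When proteasome activity falls short, the transcription factor NFE2L1 raises the subunit genes together through antioxidant response elements in their promoters.

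The labelled tissues were checked on marker genes. All 11 markers of retinal neurons and glia reached 1 FPKM (fragments scaled by transcript length and library size) in retina and 3 did in mNRPCs, with summed levels of 11670 and 36.7 FPKM. Markers of dividing cells (Mki67, Top2a and Cdk1) summed to 199.7 FPKM in mNRPCs and 0.342 FPKM in retina. All 6 progenitor markers reached 1 FPKM in mNRPCs and 5 did in retina. The microglial and endothelial lists each summed to less than 0.03 FPKM in mNRPCs, and to 4.92 and 7.73 FPKM in retina. The pigment epithelium list summed to 0.197 FPKM in mNRPCs and 10.4 FPKM in retina. The fibroblast list summed to 453 FPKM in mNRPCs, of which Col3a1 made up 449.8 FPKM, and to 2.10 FPKM in retina. Depth was estimated at 6490000 fragments for mNRPCs and 5010000 for retina, and the FPKM of mNRPCs summed to 1.43 times that of retina.

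Most proteasome genes were higher in mNRPCs than in retina, and the core particle differed more than the regulatory particle. Of the 36 members 34 reached 1 FPKM in either library and were compared. On the log2(FPKM + 1) scale their median log2 ratio of mNRPCs to retina was 0.74, against −0.12 for all 13780 genes compared, and 33 of the 34 were above 0, as were 46.9% of all genes. Of the 34, 10 were at least 2-fold higher in mNRPCs, close to the share of all genes (24.5%), and 0 were at least 2-fold lower, where 30.0% of all genes were. Together the members held 0.712% of the FPKM of mNRPCs and 0.549% of that of retina.

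Other abundant genes were read beside the members. Among the 2320 genes that reached 50 FPKM in either library, a minimum set after the values were seen, the median log2 ratio was 0.73, and it was 0.75 for the 31 members among these. Of the 31 members 9 were at least 2-fold higher, against 43.2% of the 2320 genes, and 0 were lower, against 21.8%. This minimum can be met in the library where a gene is high, and 7 of the members met it in mNRPCs alone and 0 in retina alone. With the geometric mean of both libraries at 50 FPKM or more, 28 members had a median of 0.79 and 1274 genes one of 0.67. Of these members 9 were at least 2-fold higher and 0 lower, against 38.9% and 9.58% of these genes. The size of the members' difference depended on how the libraries were scaled. Trimmed mean scaling, which uses the mean ratio after extreme genes are dropped, gave the members a median of 0.75, and 0 changed direction. Other scalings lowered the ratios, and 1 of them changed the direction of 8 members. With the FPKM of both libraries brought to an equal sum, the median of all genes moved from −0.12 to −0.61 and that of the members to 0.24. The members then had 25 genes above 0 (35.7% of all genes), 3 at least 2-fold higher (19.2%) and 0 lower (40.8%). The 3 were Psma5, Psmb1 and Psmb4, and the 8 that came below 0 were Psmc1, Psmc2, Psmc4, Psmd1, Psmd3, Psmd5, Psmd7 and Psmd9. The members' median lay above that of all genes by 0.86 as deposited and by 0.85 after rescaling. The counting error of a member's log2 ratio was estimated at a median SE of 0.081 and was at most 0.18.

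**Figure D1:**
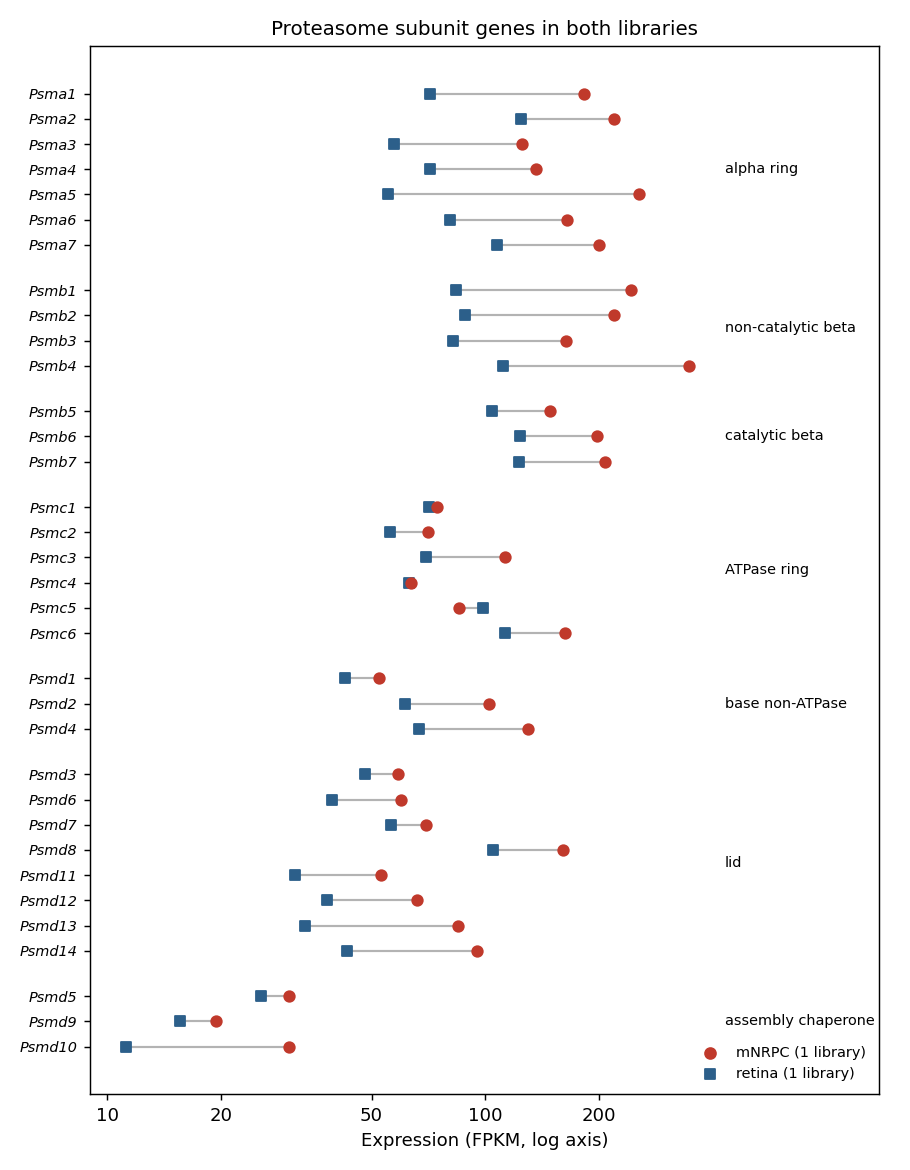
Expression of the 34 compared proteasome genes in FPKM on a log axis, with circles for the mNRPC library and squares for the retina library (1 library each), grouped by part of the proteasome. The circle lies to the right of the square for every gene except Psmc5, and core particle levels in mNRPCs run from 124.8 to 347 FPKM.

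The alpha subunits, which form the outer rings of the core, were all higher in mNRPCs, between 1.76-fold and 4.61-fold. Psma5 stood out, with 254.7 FPKM in mNRPCs and 55.2 FPKM in retina. Its log2 ratio of 2.18 was the largest of the members, 0.55 above the next, and 9.62% of all compared genes had a larger ratio. Psma5 was the lowest of the alpha subunits in retina and the highest in mNRPCs. Psma1 was at 182.0 FPKM in mNRPCs and 71.6 FPKM in retina (log2 ratio 1.33). Psma3 was at 124.8 and 57.2 FPKM (1.11), and Psma6 at 165.1 and 80.9 FPKM (1.02). These 4 of the 7 genes passed 2-fold as deposited, against 24.5% of all genes. Of genes with a geometric mean of at least 50 FPKM, 38.9% did. Psma5 also passed with equal sums of FPKM, where Psma1 came to 0.83, Psma3 to 0.61 and Psma6 to 0.51. With upper quartile scaling Psma3 came to 0.82 and Psma6 to 0.72, and with the median ratio of genes of like length subtracted (length correction) Psma6 came to 0.69, all under 2-fold. The remaining alpha subunits lay just under it. Psma4 was at 136.3 FPKM in mNRPCs and 71.5 FPKM in retina (0.92), Psma7 at 199.96 and 107.7 FPKM (0.89), and Psma2, the highest in retina, at 219.5 and 124.7 FPKM (0.81).

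The beta subunits without proteolytic activity, Psmb1 to Psmb4, line the inner rings beside the catalytic ones. Psmb4 had the highest level of any member in mNRPCs, 347 FPKM, against 111.5 FPKM in retina (log2 ratio 1.63). Psmb1 was at 243.6 FPKM in mNRPCs and 83.5 FPKM in retina (1.53), and Psmb2 at 219.8 and 88.5 FPKM (1.30, or 0.79 with the length correction and 0.80 with equal sums of FPKM). Psmb3, at 163.5 and 82.3 FPKM, came to 0.98 and was the member of this group below 2-fold. The group had a median of 1.42, the highest of the parts of the proteasome.

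The catalytic subunits differed less. Psmb5, the chymotrypsin-like subunit and main target of proteasome inhibitor drugs, was at 148.5 FPKM in mNRPCs and 103.9 FPKM in retina (log2 ratio 0.51). Psmb6, the caspase-like subunit, was at 198.0 and 123.5 FPKM (0.68), and Psmb7, the trypsin-like subunit, at 206.9 and 122.9 FPKM (0.75). Each of these ratios was below that of every alpha and non-catalytic beta subunit, with a gap of 0.064 between Psmb7 and Psma2, which is within the counting error. In retina the median of the catalytic genes was 1.43 times that of the non-catalytic beta genes, and in mNRPCs it was 0.854 times.

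The inducible counterparts of these genes were present in mNRPCs. Psmb8, which replaces the product of Psmb5, was at 88.0 FPKM in mNRPCs and 2.24 FPKM in retina and made up 37.2% of the sum of the pair in mNRPCs and 2.11% in retina. Psmb9, the counterpart of Psmb6, made up 16.3% of its pair in mNRPCs and 0.831% in retina, and Psmb10, the counterpart of Psmb7, 21.8% and 3.57%. With each pair summed, the log2 ratios were 1.15 for Psmb5 and Psmb8, 0.92 for Psmb6 and Psmb9, and 1.05 for Psmb7 and Psmb10. These sums lay within the range of the alpha subunits, 0.81 to 2.18. The median of the summed pairs in mNRPCs was 1.02 times that of the non-catalytic beta genes, against 1.45 times in retina.

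**Figure D2:**
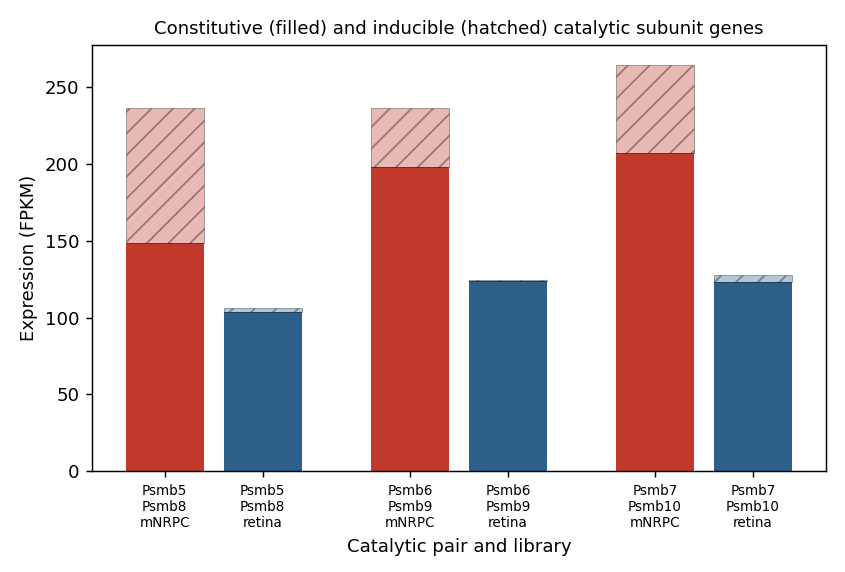
FPKM of each constitutive catalytic gene (filled) with its inducible counterpart stacked on top (hatched), for the mNRPC and the retina library. The hatched part takes 16.3% to 37.2% of the bars of mNRPCs and 0.831% to 3.57% of the bars of retina.

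The remaining core genes encode tissue-restricted subunits. Psma8, an alpha subunit of testis, was listed at 0 in both libraries. Psmb11, the subunit of the thymus proteasome, was listed at 0 in mNRPCs and at 0.200 FPKM in retina, an estimated 4.25 fragments. Neither reached 1 FPKM, and both were left out of the medians. A value of 0 in this table can also be a failed estimate.

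The ATPase ring had the lowest median log2 ratio of the parts as deposited, 0.20. Psmc5 was the member lower in mNRPCs, at 85.3 FPKM against 98.5 FPKM in retina (log2 ratio −0.21). Psmc4 was at 63.6 FPKM in mNRPCs and 62.9 FPKM in retina (0.017), and Psmc1 at 74.5 and 71.0 FPKM (0.068). The counting errors (SE) of these 2 ratios were estimated at 0.090 and 0.080, within which these ratios lay as deposited. Psmc4 was at −0.49 and Psmc1 at −0.44 when the sums of FPKM were made equal, and at −0.28 and −0.23 with upper quartile scaling. Psmc2 was at 70.4 and 55.9 FPKM (0.33), Psmc6 at 162.5 and 113.0 FPKM (0.52) and Psmc3 at 112.7 and 69.7 FPKM (0.69). The ring subunits are present in equal copies in the particle, while their genes spanned 2.55-fold in mNRPCs and 2.02-fold in retina, with Psmc6 highest in both libraries. With equal sums of FPKM 2 of the 6 stayed above 0 and the median was −0.31.

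Of the other base genes, Psmd1 and Psmd2 encode the large scaffold subunits and Psmd4 a ubiquitin receptor. Psmd1 was at 52.3 FPKM in mNRPCs and 42.5 FPKM in retina (log2 ratio 0.29, or −0.21 with equal sums of FPKM), and Psmd2 at 102.1 and 61.5 FPKM (0.72). Psmd4 was at 130.1 and 66.7 FPKM (0.95, or 0.61 with its highest row alone).

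The lid genes were all higher in mNRPCs as deposited, and 2 of the 8 passed 2-fold, against 24.5% of all genes. With equal sums of FPKM 6 of the 8 were above 0 and 0 passed 2-fold, and Psmd3 and Psmd7 were at −0.22 and −0.20. Psmd14, the deubiquitinase that cuts ubiquitin chains off substrates, was at 95.1 FPKM in mNRPCs and 43.1 FPKM in retina (log2 ratio 1.12, or 0.83 with upper quartile scaling and 0.90 with the length correction). Psmd13, a scaffold subunit of the lid, was at 84.8 and 33.3 FPKM (1.32). Psmd7, the inactive partner of Psmd14, was at 69.6 and 56.2 FPKM (0.30), so the paired subunits differed between the libraries by unequal amounts. Psmd11, a subunit whose level is known to limit particle assembly in stem cells, was at 53.1 and 31.4 FPKM (0.74, or 1.16 with its curated row alone). Psmd12 was at 65.8 and 38.0 FPKM (0.78), and Psmd6 at 59.9 and 39.4 FPKM (0.59). Psmd3 was at 58.7 and 47.9 FPKM (0.29). Psmd8 had the highest level of the 8 Psmd genes of the lid in both libraries, 160.8 and 104.9 FPKM (0.61). The small lid subunit Sem1, whose symbol falls outside the rule, was at 406 and 144.2 FPKM (1.49, or 0.98 with equal sums of FPKM). The ubiquitin receptor gene Adrm1 was at 55.3 and 35.003 FPKM (0.64).

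Psmd5, Psmd9 and Psmd10 encode chaperones that bind ATPase subunits during assembly of the base and leave the finished particle. These had the lowest levels of the compared members in both libraries, 19.3 to 30.3 FPKM in mNRPCs and 11.2 to 25.6 FPKM in retina. Psmd10, known as the oncoprotein gankyrin, was at 30.3 FPKM in mNRPCs and 11.2 FPKM in retina (log2 ratio 1.36). Psmd5 was at 30.3 and 25.6 FPKM (0.24), and Psmd9 at 19.3 and 15.6 FPKM (0.30). The counting error (SE) of the ratio of Psmd10 was 0.18. With the length correction the ratios were 1.14 for Psmd10, 0.50 for Psmd5 and 0.23 for Psmd9, closer together than as deposited. With equal sums of FPKM they were 0.90, −0.26 and −0.19.

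**Figure D3:**
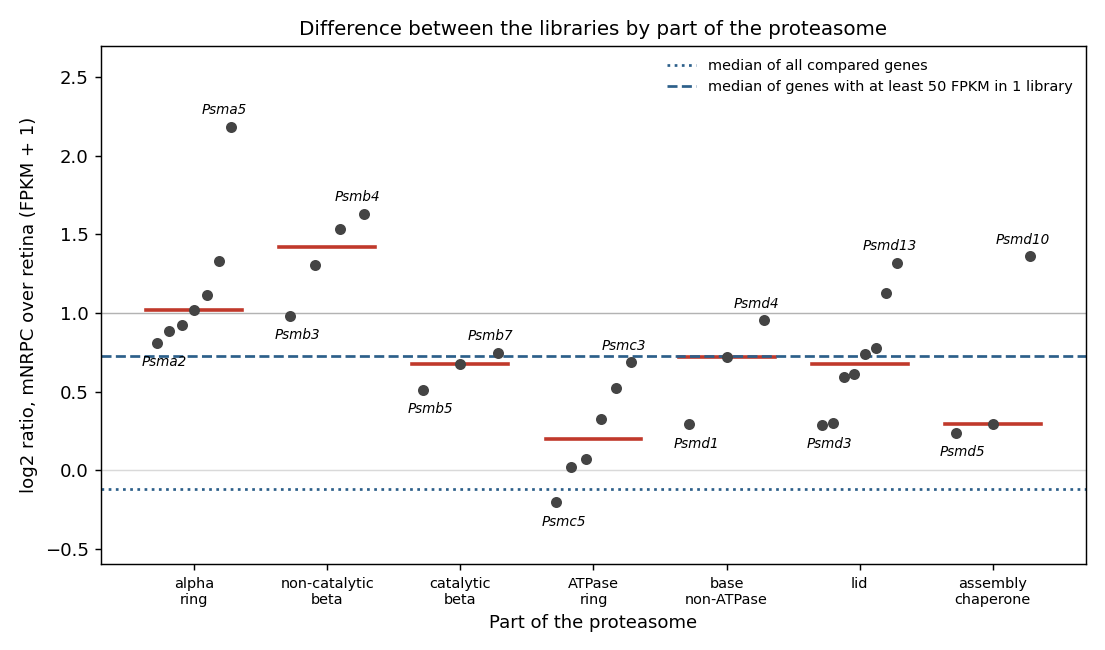
Log2 ratio of mNRPCs to retina, log2((mNRPC FPKM + 1)/(retina FPKM + 1)), for each compared member by part of the proteasome, with thick bars for the median of each part, a dotted line for the median of all compared genes and a dashed line for that of genes with at least 50 FPKM in 1 library. The alpha and non-catalytic beta genes lie at 0.81 and above, the ATPase genes at 0.69 and below, and the thin line at 1 marks 2-fold.

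Core and regulatory particle were then set side by side. Core genes had a median log2 ratio of 1.001 (range 0.51 to 2.18) with 7 of 14 at least 2-fold higher. Regulatory genes had one of 0.56 (−0.21 to 1.36) with 3 of 20. Of all genes 24.5% were at least 2-fold higher. Among genes with a geometric mean of at least 50 FPKM, 38.9% were, and their median was 0.67. The compared core genes all lay at that level, with minima of 124.8 FPKM in mNRPCs and 55.2 FPKM in retina. Regulatory genes went down to 11.2 FPKM in retina. With equal sums of FPKM 3 core and 0 regulatory genes passed 2-fold, where 19.2% of all genes did. The difference of the core and regulatory medians was 0.44. It was 0.44 under that scaling too, since scaling shifts both particles alike. Of the 14 core genes 13 were above the regulatory median, and 3 of the 20 regulatory genes were above the core median. Core transcripts are shorter, with a median of 1163 bp against 1711 bp. With the length correction the difference was 0.31. Without the 10 members that share at least 10% of their 50-base stretches with another gene, it was 0.74.

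Within a library the levels can be compared without any scaling between libraries. In mNRPCs the core genes had a median of 199.0 FPKM and the regulatory genes one of 70.0 FPKM, a ratio of 2.84. In retina these were 86.0 and 51.9 FPKM, a ratio of 1.66. In mNRPCs 11 of the 14 core genes were above the highest regulatory gene, Psmc6, and in retina 3 were. Without the assembly chaperones the ratios were 2.67 and 1.53. Among alpha and non-catalytic beta genes against the ATPase ring, a pair picked with the values in view, the ratio was 2.503 in mNRPCs and 1.17 in retina. All 11 of these core genes had a larger log2 ratio than every ATPase gene, and the medians differed by 0.92. After the length correction the medians differed by 0.75 and the ranges overlapped by 0.15.

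The order of levels was partly kept between the libraries. Across the 34 members Spearman's rho of the libraries was 0.81. Across the 20 regulatory genes it was 0.82 and across the 14 core genes 0.35, a description over genes that share the same 2 libraries. The SD of log2 FPKM over the core genes was 0.39 in mNRPCs and 0.40 in retina. Over the regulatory genes it was 0.78 and 0.85, a wider spread, in which an order is more easily kept.

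**Figure D4:**
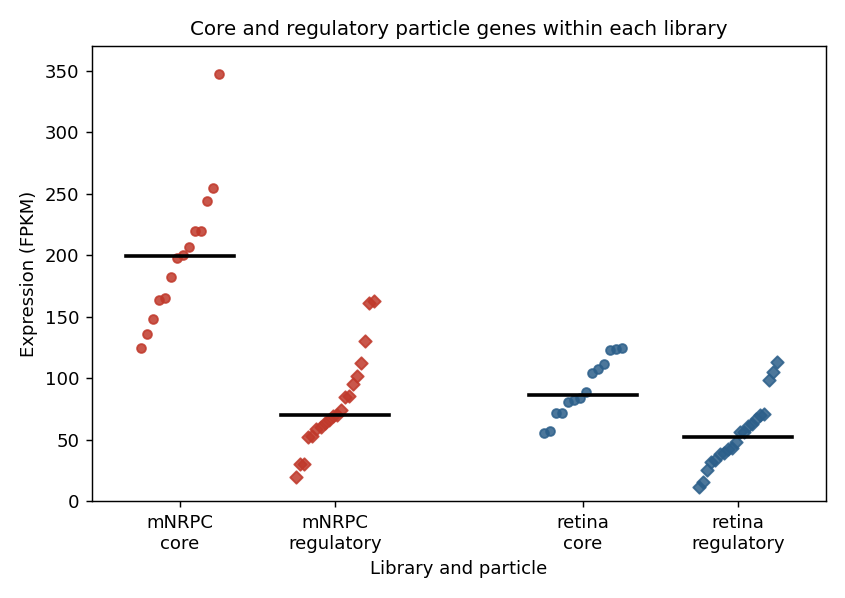
FPKM of core particle genes (circles, 14) and regulatory particle genes (diamonds, 20) within the mNRPC and the retina library, on a linear axis, with bars for the medians. The core median is 2.84 times the regulatory median in mNRPCs and 1.66 times in retina.

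For 26 of the 34 compared members the table has 1 transcript row, and for 8 it has several. Psmd4 showed the largest shift between rows. Its row NM_001282017.1 made up 35.6% of the gene in mNRPCs and 16.5% in retina, at 46.3 and 11.02 FPKM, while the main row was at 83.2 and 54.4 FPKM. For Psmd11 the curated row went from 46.3% of the gene in retina to 63.7% in mNRPCs. The minor row of Psmd10, NM_001164177.1, was at 2.26 FPKM in mNRPCs and 2.72 FPKM in retina, so the difference of Psmd10 lay on its main row, at 28.01 and 8.45 FPKM. For Psmb2 a predicted row held 10.2% of the gene in mNRPCs and near 0 in retina. Reads that fit several rows were divided by estimation, so these shares are less certain than the gene sums.

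Some members share stretches of sequence with transcripts of other genes. Of the 50-base stretches of the main transcript of Psma5, 55.4% occur in transcripts of 3 other genes, most in Gm8394, which had no row in the matched table. Psmb5 (57.1%) and Psmb3 (55.8%) shared as much with other genes, and Psma4 shared 31.5%. Psmb7 shared 28.1%, all with Nek6, which was at 10.1 FPKM in mNRPCs and 1.89 FPKM in retina. For Psmb1, Psmb4 and the ATPase genes other than Psmc1 the share was at most 2.81%. Psmd13 shared 15.8%, most with the neighbouring gene Sirt3, which was at 12.8 FPKM in mNRPCs and 30.6 FPKM in retina. The part of these shared stretches in the values was not tested. Without the 10 members at or above 10%, the core median was 1.16.

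Promoter sequences, from 250 bases before to 50 bases after the start, were taken from RefSeq (GRCm38.p6) for 29 of the 36 members, with 31 start sites. Psma8, Psmb1, Psmb2, Psmb7, Psmc3, Psmd3 and Psmd7 had no promoter entry and were not searched. They were searched on both strands for the antioxidant response element core TGACNNNGC and for the CCAAT box. TGACNNNGC was in 5 of the 31 windows (16.1%), against 12.4% of all 32851 promoters, and CCAAT in 12 (38.7%), against 37.4%. The 5 genes were Psmb5, Psmb6, Psmc6, Psmd9 and Psmd12. Neither share was far from that of all promoters. In the last 150 bases of the window, around the start, TGACNNNGC was in 3 windows (9.68%, against 7.23% of all promoters), those of Psmb5, Psmb6 and Psmd9. CCAAT was there in 9 windows (29.0%, against 23.4% of all promoters).

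Shown here are the windows of the genes with the largest and the smallest log2 ratio, Psma5 and Psmc5. Those of Psmb5 and Psmb6, the 2 catalytic genes that had a window, are also shown. Both hold the element near the start, and it is in capitals. Psma5 lies at chr3:108256676-108256975 and Psmc5 at chr11:106255935-106256234, both on the plus strand. The window of Psmb5 is chr14:54617946-54618245 on the minus strand, where the element begins 47 bases before the start. That of Psmb6 is chr11:70525107-70525406 on the plus strand, where it begins 9 bases before the start. All are written 5′ to 3′ along the gene.
Psma5: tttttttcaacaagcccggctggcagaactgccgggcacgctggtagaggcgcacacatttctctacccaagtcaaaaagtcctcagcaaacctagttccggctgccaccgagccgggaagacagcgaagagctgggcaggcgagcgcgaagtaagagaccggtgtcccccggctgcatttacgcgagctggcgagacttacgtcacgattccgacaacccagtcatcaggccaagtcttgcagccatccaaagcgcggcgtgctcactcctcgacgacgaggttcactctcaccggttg
Psmb5: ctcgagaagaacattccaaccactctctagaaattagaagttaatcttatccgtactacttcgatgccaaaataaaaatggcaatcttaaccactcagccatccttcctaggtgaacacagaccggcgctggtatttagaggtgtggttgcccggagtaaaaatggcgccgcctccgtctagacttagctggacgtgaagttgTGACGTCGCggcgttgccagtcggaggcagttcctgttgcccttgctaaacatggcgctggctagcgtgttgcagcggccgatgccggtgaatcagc
Psmb6: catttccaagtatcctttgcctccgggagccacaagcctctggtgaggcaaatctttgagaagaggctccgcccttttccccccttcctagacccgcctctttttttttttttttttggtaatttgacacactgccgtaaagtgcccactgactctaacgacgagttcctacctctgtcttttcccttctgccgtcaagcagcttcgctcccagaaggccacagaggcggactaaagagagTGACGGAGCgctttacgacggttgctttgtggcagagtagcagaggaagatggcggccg
Psmc5: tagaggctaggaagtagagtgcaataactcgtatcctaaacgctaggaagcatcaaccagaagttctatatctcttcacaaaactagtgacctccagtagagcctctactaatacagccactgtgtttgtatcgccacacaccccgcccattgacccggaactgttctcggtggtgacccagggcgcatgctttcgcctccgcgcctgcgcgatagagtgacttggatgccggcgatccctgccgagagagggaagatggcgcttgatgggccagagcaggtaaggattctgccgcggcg

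Those of Psma5 and Psmc5 hold no match to TGACNNNGC. The members with the element had log2 ratios of 0.51 (Psmb5), 0.68 (Psmb6), 0.52 (Psmc6), 0.30 (Psmd9) and 0.78 (Psmd12), all under 2-fold. A match is no evidence that a factor binds there.

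The genes around the proteasome were taken from a list of 48, of which 47 had a row. Of these 16 were at least 2-fold higher in mNRPCs and 2 lower, where 24.5% and 30.0% of all genes were. With equal sums of FPKM these counts were 10 and 6, where 19.2% and 40.8% of all genes were. Assembly factors of the core were within 2-fold. Pomp, which matures the core, was at 193.6 FPKM in mNRPCs and 119.3 FPKM in retina (log2 ratio 0.69), and Psmg1 to Psmg4 ranged from 0.11 to 0.97. Akirin2, which carries proteasomes into the nucleus, was at 32.3 and 31.9 FPKM. With equal sums of FPKM Psmg1 came to −0.38, Psmg3 to −0.37 and Akirin2 to −0.49. Psmg2, Psmg4 and Pomp stayed above 0.

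Activators that cap the core in place of the regulatory particle had 3 genes at least 2-fold higher in mNRPCs and 0 lower, with the inhibitor counted among the 5. Of all genes 24.5% were higher and 30.0% lower. With equal sums of FPKM the counts were again 3 and 0, where 19.2% and 40.8% of all genes were. Psme1, of the interferon-inducible activator, was at 173.3 FPKM in mNRPCs and 20.6 FPKM in retina (log2 ratio 3.01), and Psme2, its partner, at 245.7 and 26.4 FPKM (3.17), both above every member. Psme4, the nuclear activator, was at 37.7 and 9.85 FPKM (1.83). Psme3, the nuclear counterpart of Psme1, was at 35.3 and 40.4 FPKM (−0.19), and the inhibitor gene Psmf1 at 8.62 and 11.1 FPKM (−0.33).

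Of the genes that supply ubiquitin, Ubb was lower in mNRPCs, at 969.9 FPKM against 1716 FPKM in retina (log2 ratio −0.82). Rps27a, in which ubiquitin is fused to a ribosomal protein, was at 781.4 and 193.4 FPKM (2.01). Uba1, the main activating enzyme, was at 185.7 and 82.9 FPKM (1.15). These genes therefore did not share a direction. Among shuttle factors that bring substrates, Rad23b was at 118.8 and 44.0 FPKM (1.41) and Sqstm1 at 354 and 128.5 FPKM (1.46), while Ubqln2 was at 19.7 and 47.5 FPKM (−1.23). Txnl1, a partner of the regulatory particle, was at 79.7 and 29.0 FPKM (1.43), and Usp14, a deubiquitinase that binds the base, at 53.1 and 28.2 FPKM (0.89).

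Regulators of proteasome genes were read last. Nfe2l1 was at 90.5 FPKM in mNRPCs and 54.4 FPKM in retina (log2 ratio 0.72). Of the genes whose products process NFE2L1 into its active form, Ngly1 was at 6.91 and 16.1 FPKM (−1.11). Ddi2, another of these, was at 3.86 and 7.74 FPKM (−0.85, or −1.38 with equal sums of FPKM). Vcp, read in the same list as Ngly1, was at 155.4 and 123.6 FPKM (0.33, or −0.18 with equal sums). Nfe2l2, which binds the same element, was at 55.6 and 12.7 FPKM (2.05), and Maff, a small partner protein of both, at 9.33 and 0.441 FPKM (2.84). The other small Maf genes were within 2-fold, Mafk at 7.95 and 3.69 FPKM (0.93) and Mafg, the most abundant, at 27.5 and 31.5 FPKM (−0.19). These are transcript levels, which do not measure the activity of the factors.

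The members were also read against other complexes made in all cells. eIF3 and the COP9 signalosome are built on the same fold as the lid. The 12 eIF3 genes had a median log2 ratio of 1.201 with 10 at least 2-fold higher, and the 10 COP9 genes one of 0.54 with 0 higher and 1 lower, while the 8 lid genes were at 0.67. Of all genes 24.5% were higher and 30.0% lower. With equal sums of FPKM 3 of the 12 eIF3 genes were at least 2-fold higher, and 0 COP9 genes were higher and 1 lower. Under that scaling 19.2% of all genes were higher, close to the eIF3 share, and 40.8% were lower. The 8 genes of the CCT chaperonin, a cytosolic folding machine, had a median of 0.98. Mitochondrial ribosomal protein genes were at 0.70 (75 genes) and cytosolic ones at 2.11 (78 compared). The core particle, at 1.001, lay near CCT and below eIF3, and the regulatory particle, at 0.56, near COP9. These differences between complexes were not tested. Markers of dividing cells and the inducible subunits moved with the same contrast, and their part in the values was not tested. In retina, fewer cells of a type and less RNA per cell cannot be told apart.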

How the data were processed

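RNA of 1 mNRPC culture and 1 retina sample was sequenced. The deposited FPKM values were calculated by the authors per RefSeq transcript. Bowtie 2 and eXpress are named in the study's methods, and TopHat2 2.0.10 and the build GRCm38.p3 in the submitters' processing notes, so which aligner made these values is not settled. Of 106754 rows 69.6% were matched, without version, to symbols of RefSeq (GRCm38.p6) or GENCODE M21, and rows of a symbol were summed. FPKM below 1e-06 were read as 0. As in the study, 1 was added before the log2 transformation, which understates ratios of low genes. Genes with at least 1 FPKM in 1 library were compared, and a log2 ratio of 1 in size (2-fold) was the threshold. The steps were tested on simulated data with known folds. Depth was estimated from the lowest values of 5531 curated single-row transcripts of at least 1500 bp, with lengths from GENCODE. Fragment numbers are therefore estimates and cover counting error only. Members, lists and roles were chosen with earlier results of these data known. All members and all genes of the lists could be named, and some list genes are not reported here. Alternatives concerned pseudocount, scaling, rows, minimum level, threshold, length, shared stretches and promoter window. Python 3.11.15, pandas 2.3.3, numpy 2.4.6 and scipy 1.17.1 were used.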

Additional observations from a re-analysis of the deposited data

How the results depend on the processing

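No paired analysis was possible because 1 library stood for each group, and so no replicate could be left out. The settings with at least 50 FPKM and without members with shared stretches, and the pairs of core parts, were chosen after seeing the data. Rescaling to a common sum lowered all log2 ratios of members by construction. It left 3 members at least 2-fold higher and gave medians of 0.24 for the members, 0.50 for the core and 0.051 for the regulatory particle. Under it the medians were 0.031 for COP9, 0.70 for eIF3, 0.47 for CCT, 1.61 for cytosolic and 0.22 for mitochondrial ribosomal proteins, and 10 related genes were higher and 6 lower. Upper quartile scaling gave 0.45, 0.71 and 0.26 for members, core and regulatory particle. Trimmed mean scaling gave 0.75, 1.01 and 0.56, with 10 members at least 2-fold higher. Upper quartile scaling, the length correction and the removal of members with shared stretches each left 7 members at least 2-fold higher, the last from fewer genes. With curated rows only 11 were, Psmd11 being added. With a threshold of 1.5-fold 23 members were higher, more by construction. No share of all genes is given at that threshold, or for upper quartile or trimmed mean scaling, the length correction or curated rows. These counts are therefore not set against all genes. The length correction gave a core median of 0.78 and a difference of 0.75 between structural core and ATPase ring and of 0.63 between structural core and catalytic genes, against 0.44 without it. The gap between the lowest structural and the highest ATPase ratio was then −0.15, an overlap, against 0.13. Without the members with shared stretches, the core median was 1.16 and the core to regulatory difference 0.74. The structural to catalytic difference was then 0.63 and the retina level ratio 1.89. Psmb5 and Psmb7 were among the genes removed, so that structural to catalytic difference rests on Psmb6 alone as the catalytic gene. In the last 150 bases of the window 3 promoters held TGACNNNGC, fewer by construction. For length and shared stretches the cause was not tested.

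Over the settings, 0 members were at least 2-fold lower in each, the core minus regulatory difference ranged from 0.31 to 0.74, and the level ratio of the particles from 2.67 to 3.10 in mNRPCs and from 1.53 to 1.89 in retina. Of 238 values of single members, 155 moved by less than the 95% counting interval of the gene and 83 by more. Equal sums of FPKM moved 34 of these and upper quartile scaling 33, and both shift the members nearly alike. The length correction moved 13, the highest row per gene 2 and curated rows 1. The pseudocount and trimmed mean scaling moved 0. The lengths are those of GENCODE counterparts, which can differ from the RefSeq transcripts behind the FPKM.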
